A study of Homo sapiens with 6 samples.

Results

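The mRNAs of 9 amino acid transporters (SLC7A1, SLC7A5, SLC7A6, SLC38A1, SLC38A2, SLC1A4, SLC1A5, SLC6A9 and SLC43A1) and of asparagine synthetase (ASNS) were measured by RNA-Seq in HT29 cells. The 10 genes were taken by symbol from the 28278 genes listed per library, and all 10 were among the 15307 genes that passed the filter on low counts and were tested. HT29, a human colorectal adenocarcinoma line, carried either an siRNA against ALDOA (siALDOA, 3 biological replicates) or a scrambled siRNA (siControl, 3 biological replicates), with RNA taken at 48 h. Both groups thus shared the transfection and the single cell line, and the siRNA lowers ALDOA without removing it. Levels are given as CPM, the counts of a gene scaled to library size with TMM normalization, fold changes on the log2 scale as siALDOA against siControl, and adjusted p-values and standard errors (SE) from edgeR's quasi-likelihood test with Benjamini-Hochberg adjustment over all tested genes.

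Amino acids cross the plasma membrane through solute carriers, which differ in the side chains they accept and in whether they exchange, accumulate or equilibrate their substrates. Accumulating carriers driven by sodium fill the cell with glutamine and other small neutral amino acids, and exchangers such as SLC7A5 trade these for leucine and other essential ones. When amino acids run short, the kinase GCN2 (EIF2AK4) phosphorylates the initiation factor subunit encoded by EIF2S1, which favours translation of the transcription factor ATF4, and ATF4 is known to act on ASNS and on many transporter genes through C/EBP-ATF response elements.

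The word TGATGNAA, the core of that response element, was searched on both strands of the RefSeq promoter windows (GRCh38.p14), which run from 250 bases before to 50 bases after a transcription start. No other motif was searched. All 10 genes had a window, 16 in all, and 5 of the 10 genes held the word, namely ASNS, SLC7A1, SLC1A4, SLC38A1 and SLC1A5. Of all 35116 windows 3.62% held it, and of the 11344 tested genes with a window 2.8% did. The matches are shown in 30 bases each so that the 5 occurrences can be compared, with the word in capitals and read on the strand on which it appears.
ASNS, chr7:97872458-97872487, minus strand: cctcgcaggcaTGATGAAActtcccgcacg
SLC7A1, chr13:29595663-29595692, minus strand: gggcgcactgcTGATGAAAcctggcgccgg
SLC38A1, chr12:46266502-46266531, minus strand: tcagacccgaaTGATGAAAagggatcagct
SLC1A4, chr2:64989381-64989410, minus strand: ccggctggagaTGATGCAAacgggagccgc
SLC1A5, chr19:46784893-46784922, minus strand: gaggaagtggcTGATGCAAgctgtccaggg

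Counted from the transcription start, the word lay at bases -68 to -61 in ASNS, at 8 to 15 in SLC7A1 and at -4 to 4 in SLC38A1. In SLC1A4 it lay at -7 to 1 of the second listed start, on the strand opposite to the gene, and in SLC1A5 at -97 to -90 of the third listed start. The windows of SLC7A5, SLC6A9, SLC38A2, SLC43A1 and SLC7A6 did not contain these letters. The counts are per gene and do not show which start was used in HT29. A match is a description of the sequence and was not tested for binding. The 250 bases before the first listed start are shown for ASNS (chr7:97872409-97872658, minus strand), which held the word, and for SLC7A5 (chr16:87869508-87869757, minus strand), which did not.
ASNS: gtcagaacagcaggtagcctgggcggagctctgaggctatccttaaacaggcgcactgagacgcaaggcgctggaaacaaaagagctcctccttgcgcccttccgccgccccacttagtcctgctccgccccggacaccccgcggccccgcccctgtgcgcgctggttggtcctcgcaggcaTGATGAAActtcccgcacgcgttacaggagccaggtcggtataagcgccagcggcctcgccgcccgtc
SLC7A5: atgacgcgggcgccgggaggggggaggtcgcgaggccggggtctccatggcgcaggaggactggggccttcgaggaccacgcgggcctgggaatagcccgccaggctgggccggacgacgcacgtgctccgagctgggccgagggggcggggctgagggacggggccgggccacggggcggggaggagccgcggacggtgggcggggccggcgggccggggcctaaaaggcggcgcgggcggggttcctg

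The libraries held 27277538 to 33237914 counts, of which 97787 to 155798 fell on the 10 genes. ALDOA, the glycolytic aldolase that the siRNA targeted, averaged 289 ± 13.7 CPM in the siALDOA libraries and 632 ± 38.2 CPM in the siControl libraries (SD, n = 3 each, log2 fold change -1.13, SE 0.060, adjusted p = 6.95e-11). Of 10 colon epithelial markers 9 were tested, with summed levels of 9471 to 9802 CPM in the siALDOA libraries and 10035 to 10595 CPM in the siControl libraries. KRT19 was higher (log2 fold change 0.38, adjusted p = 5.77e-04), KRT18 was lower (-0.28, adjusted p = 0.0152), and the other 7 did not pass. KRT18 missed the threshold with library totals only (adjusted p = 0.243) and without siALDOA replicate 2 or 3 or siControl replicate 2 or 3 (adjusted p = 0.0512 to 0.0750). LGALS4 was listed at 0 counts in every library, and since the annotation used for counting is not stated, this is not read as absence. Among 10 markers of other cell types, PTPRC, CD3E, COL1A2, CDH5, DCN and VWF had 0 to 8 counts over all 6 libraries. The other 4 were tested, CD68 at 14.0 and 13.8 CPM, COL1A1 at 2.37 and 1.94, LUM at 1.44 and 1.72 and PECAM1 at 0.756 and 1.79 CPM in the siALDOA and siControl groups. PECAM1 was called lower (log2 fold change -1.23, adjusted p = 0.0429) but missed the threshold in every fit without 1 library except that without siALDOA replicate 2 (adjusted p = 0.0595 to 0.178 in the other 5). The summed level of these 10 markers was 18.2 to 18.9 CPM with siALDOA and 17.9 to 21.1 CPM with siControl, and the part of either marker list in the results was not tested. Genes of ribosomal RNA took 13.1%, 7.71% and 8.11% of the counts of siALDOA replicates 1, 2 and 3 and 17.4%, 15.3% and 8.15% of those of siControl. In bulk RNA, fewer cells with a transcript and less transcript per cell cannot be told apart.

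With siALDOA, 6 of the 10 genes were down-regulated at an adjusted p under 0.05 (SLC7A1, SLC7A5, SLC38A1, SLC1A4, SLC6A9 and ASNS), and none was up-regulated. In the whole comparison 5.29% of the tested genes were called lower. At the study's unadjusted threshold of P under 0.01 the count was also 6, against 6.74% of the tested genes. The log2 fold changes of the 10 genes ran from -0.59 to -0.019, with a median of -0.31, whereas the median over all tested genes was 0.0016. In 7 of the 10 genes every siALDOA library lay below every siControl library, which held for 14.6% of all tested genes. The summed level of the 10 genes averaged 3847 ± 291 CPM in the siALDOA libraries and 4629 ± 146 CPM in the siControl libraries (SD, n = 3 each), or 83.1% of the control level. Scaled by library totals only, without TMM, 3 of the 10 genes passed (SLC7A1, SLC1A4 and SLC6A9) and 9 of the 10 had a negative fold change, while the median of all tested genes moved to 0.075. That scaling called 279 of all tested genes lower and 896 higher, against 810 and 668 with TMM.

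**Figure D1:**
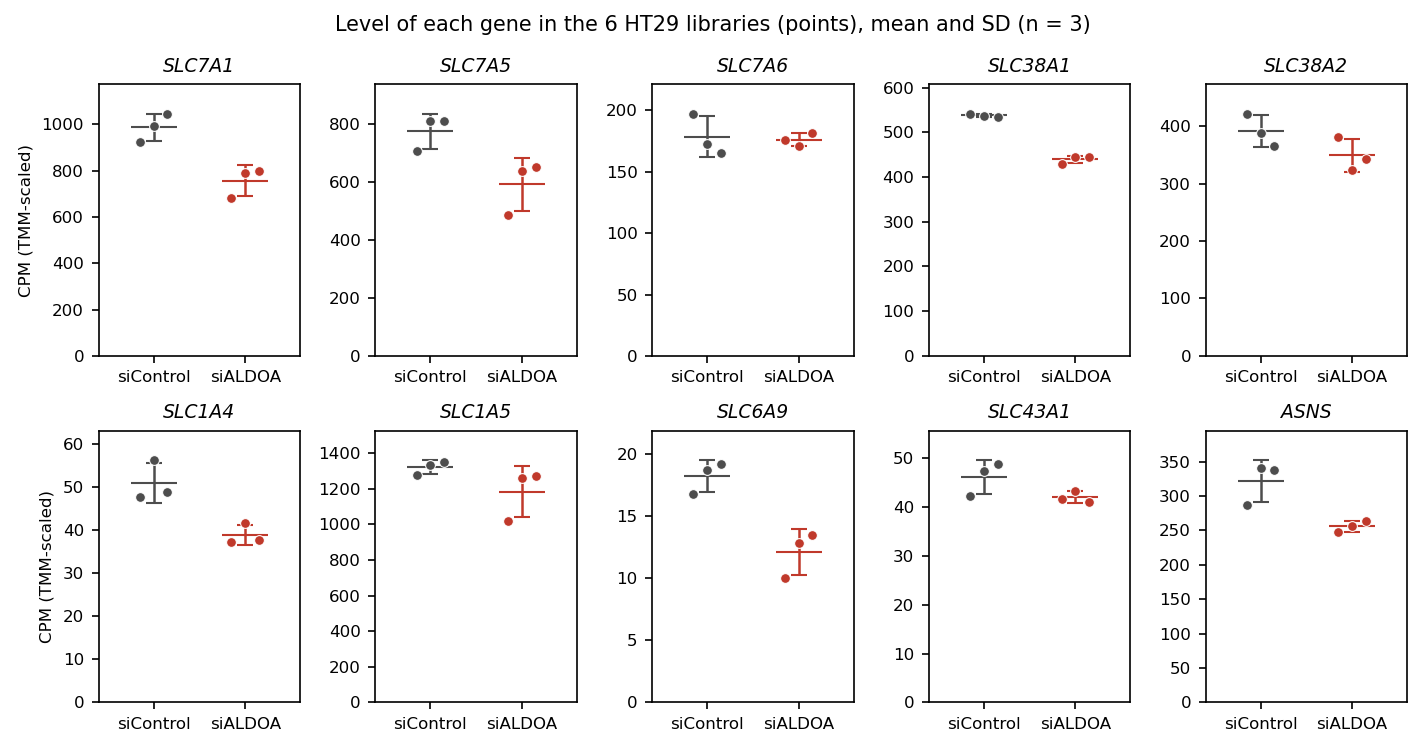
CPM (linear axes from 0) of each of the 10 genes in the 3 siControl and the 3 siALDOA libraries, drawn left to right as replicates 1, 2 and 3, with the mean as a horizontal line and the SD as bars. The 2 groups did not overlap for SLC7A1, SLC7A5, SLC38A1, SLC1A4, SLC1A5, SLC6A9 and ASNS, and they overlapped for SLC7A6, SLC38A2 and SLC43A1.

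ASNS (chromosome 7, 97851677 to 97872542, minus strand in GENCODE release 44 on hg38) encodes the enzyme that makes asparagine from aspartate with nitrogen from glutamine. Its level was 248, 256 and 264 CPM in siALDOA replicates 1, 2 and 3 and 287, 341 and 338 CPM in siControl. Every siALDOA library lay below the lowest control library, which was replicate 1. ASNS changed by -0.33 on the log2 scale (SE 0.065, adjusted p = 0.00207), a level 20.4% lower. The files also list the readthrough symbol CZ1P-ASNS, whose counts were 1.01 times those of ASNS in either group and which changed by -0.33 as well, so both symbols may count the same reads and were not taken as separate evidence.

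Among the exchangers, SLC7A5 (chromosome 16, 87830023 to 87869507, minus strand) is the main carrier of leucine and other large neutral amino acids in many tumour lines. It was at 487, 638 and 650 CPM in siALDOA replicates 1, 2 and 3 and at 706, 810 and 811 CPM in siControl. The groups did not overlap, although siALDOA replicate 1 stood well below the other two. SLC7A5 changed by -0.39 (SE 0.086, adjusted p = 0.00538). It did not pass with DESeq2 (adjusted p = 0.0546) or with library totals only (adjusted p = 0.0571), and without siALDOA replicate 1 its log2 fold change was -0.27 (adjusted p = 0.00694). Of the fits without 1 library, the one without siControl replicate 2 had the highest adjusted p, 0.0410. The pseudogene copy SLC7A5P2, with which reads could be shared, was at 4.67 and 5.62 CPM in the siALDOA and siControl groups.

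SLC7A5 works as a heterodimer with the heavy chain SLC3A2, which is not one of the 10 genes but carries SLC7A5 and SLC7A6 to the membrane. SLC3A2 was at 316, 349 and 352 CPM in the siALDOA libraries and at 390, 446 and 454 CPM in the siControl libraries. The groups did not overlap, and the log2 fold change was -0.34 (SE 0.065, adjusted p = 0.00142). The ratio of SLC7A5 to SLC3A2 counts within a library was 1.74 ± 0.17 (SD, n = 3) with siALDOA and 1.80 ± 0.018 (SD, n = 3) with siControl, and these ranges overlapped. The lower siALDOA mean came from replicate 1 at 1.54, while replicates 2 and 3, at 1.83 and 1.85, lay above every siControl library. With library totals only, SLC3A2 missed the threshold (adjusted p = 0.0589).

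SLC7A6 (chromosome 16, 68264516 to 68301823, plus strand), another partner of SLC3A2, exchanges arginine and lysine for neutral amino acids. It was at 175, 171 and 182 CPM with siALDOA and at 197, 172 and 165 CPM with siControl. The groups overlapped, and siControl replicate 1 was the highest library. The log2 fold change of -0.019 (95% interval -0.15 to 0.12, adjusted p = 0.898) took a positive sign with library totals only, without siALDOA replicate 2 and without siControl replicate 1. The antisense gene SLC7A6OS overlaps SLC7A6 over 17321 bases and had a log2 fold change of -0.024, and without a stated strand setting reads of the pair cannot be told apart.

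SLC7A1 (chromosome 13, 29509414 to 29595688, minus strand) is the facilitative carrier of arginine, lysine and ornithine. It was at 682, 790 and 801 CPM in the siALDOA libraries and at 924, 993 and 1044 CPM in the siControl libraries. The highest siALDOA library thus lay below the lowest control library. SLC7A1 changed by -0.38 (SE 0.069, adjusted p = 0.00102) and passed the threshold in every one of the 17 alternatives, with adjusted p-values up to 0.0442. Of the 2 cationic carriers SLC7A1 and SLC7A6, the first was 4.31 ± 0.38 times the second in counts with siALDOA and 5.59 ± 0.83 times with siControl (SD, n = 3). The ranges did not overlap but nearly met, at 4.62 in siALDOA replicate 2 and 4.69 in siControl replicate 1. That ratio depends on the lengths of both transcripts and is a comparison between groups only. The ratios of SLC7A5 and of ASNS to SLC7A6 overlapped between the groups.

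SLC38A1 and SLC38A2 are sodium-coupled carriers that load cells with glutamine, alanine and other small neutral amino acids, and their genes lie 88171 bases apart on chromosome 12 (46183063 to 46270017 and 46358188 to 46372773, both minus strand). SLC38A1 was at 430, 445 and 444 CPM with siALDOA and at 542, 536 and 534 CPM with siControl. Replicates were tight and the groups lay far apart for this gene, with SDs of 8.07 and 3.85 CPM. Its log2 fold change was -0.29 (SE 0.053, adjusted p = 0.00101), and it passed every alternative but library totals only (adjusted p = 0.108).

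SLC38A2 was at 381, 323 and 343 CPM with siALDOA and at 422, 387 and 365 CPM with siControl. Here siALDOA replicate 1 was the highest of its group and overlapped the lowest control library. The log2 fold change of -0.17 (95% interval -0.30 to -0.027) had an adjusted p of 0.127. It passed the threshold with no filter on low counts (adjusted p = 0.0462) and without siALDOA replicate 1 (log2 fold change -0.23, adjusted p = 0.0157). It was nearer to 0 without siALDOA replicate 2 (-0.11, adjusted p = 0.410), without siControl replicate 1 (-0.11, adjusted p = 0.387) and with library totals only (-0.092, adjusted p = 0.556). The ratio of SLC38A1 to SLC38A2 counts overlapped between the groups, at 1.27 ± 0.13 and 1.38 ± 0.090 (SD, n = 3), so a difference between the 2 neighbouring genes was not shown.

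SLC1A5 and SLC1A4 are sodium-dependent exchangers of neutral amino acids, the first favouring glutamine and the second alanine, serine and cysteine. SLC1A4 (chromosome 2, 64988477 to 65023865, plus strand) was at 37.4, 41.7 and 37.8 CPM with siALDOA and at 47.8, 56.3 and 49.0 CPM with siControl. The groups did not overlap, and replicate 2 was the highest library in both. SLC1A4 changed by -0.39 (SE 0.077, adjusted p = 0.00223) and passed in all 17 alternatives.

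SLC1A5 (chromosome 19, 46774883 to 46788594, minus strand) was at 1020, 1261 and 1272 CPM with siALDOA and at 1277, 1335 and 1354 CPM with siControl. Although the groups did not overlap, siALDOA replicates 2 and 3 lay just under the lowest control library. The log2 fold change was -0.16 (95% interval -0.32 to 0.0045, adjusted p = 0.227), and without siALDOA replicate 1 it was -0.062. SLC1A5 did not pass the threshold in any of the 17 alternatives.

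SLC6A9 (chromosome 1, 43991500 to 44031467, minus strand) encodes a glycine transporter driven by sodium and chloride. It was at 10.02, 12.8 and 13.5 CPM with siALDOA and at 16.8, 18.7 and 19.2 CPM with siControl. No siALDOA library reached the lowest control library. The log2 fold change of -0.59 (SE 0.12, adjusted p = 0.00208) was the lowest of the 10, a level 33.5% lower, and it ran from -0.67 to -0.47 as each library was left out.

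SLC43A1 (chromosome 11, 57484534 to 57515780, minus strand), a facilitative carrier of leucine and other large neutral amino acids that needs no heavy chain, was at 41.6, 43.3 and 41.0 CPM with siALDOA and at 42.2, 47.3 and 48.8 CPM with siControl. The groups overlapped through siControl replicate 1. Its log2 fold change was -0.14 (95% interval -0.29 to 0.015, adjusted p = 0.268), and no alternative took it past the threshold. The interval thus held both 0 and changes about as large as that of SLC38A1.

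**Figure D2:**
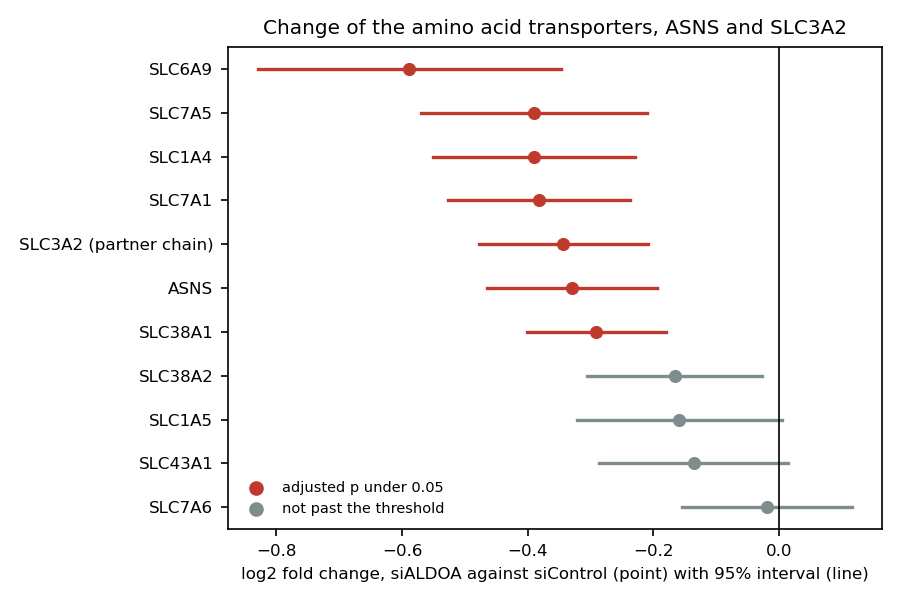
Log2 fold change of the 10 genes and of the heavy chain SLC3A2, siALDOA against siControl (horizontal axis), as a point with its 95% interval from edgeR. The 6 genes past the threshold and SLC3A2 (red) lie between -0.59 and -0.29, and the intervals of SLC1A5, SLC43A1 and SLC7A6 (grey) include 0.

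Across the 10 genes the 2 libraries numbered 1 often stood at the low end. siALDOA replicate 1 was the lowest of its group in 7 of the 10 genes and siControl replicate 1 likewise in 7 of 10, whereas SLC38A1, SLC38A2 and SLC7A6 were at their highest in siControl replicate 1. These 2 libraries also had the largest share of ribosomal RNA in their groups, and the part of that share in the levels was not tested. All 6 down-regulated genes passed the threshold whichever library was left out, and the number called was 6 or 7 in those fits. With ribosomal RNA genes also removed, scaling by library totals again gave 6 genes.

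**Figure D3:**
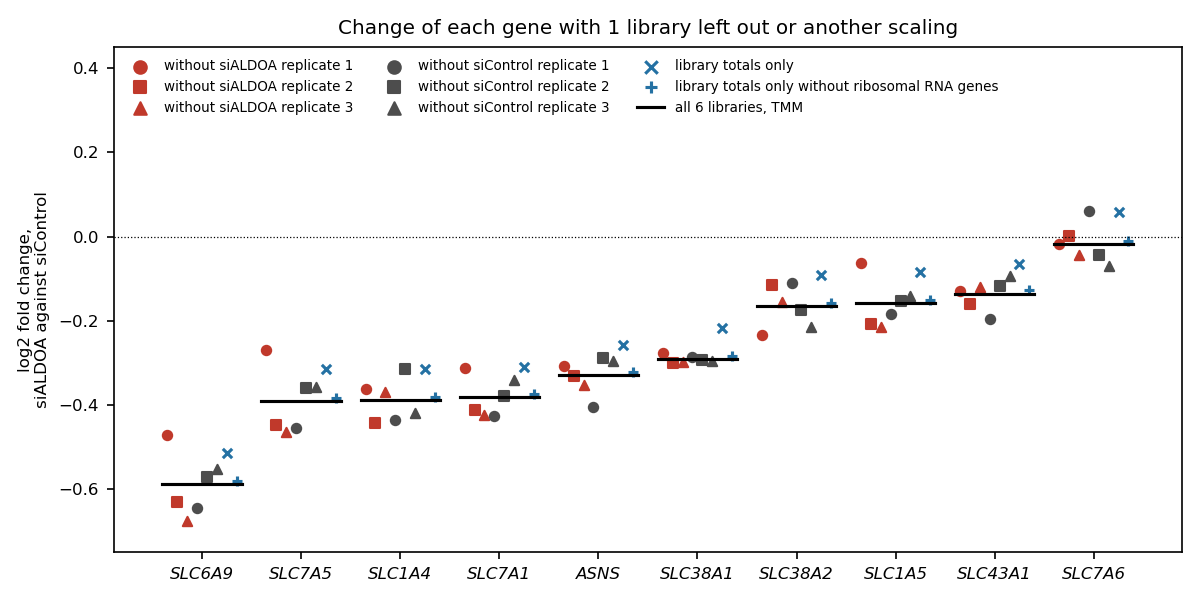
Log2 fold change of each of the 10 genes (vertical axis) with all 6 libraries (black line), with 1 library left out (red and dark grey symbols) and with scaling by library totals (blue). SLC7A5 moved from -0.39 to -0.27 and SLC1A5 from -0.16 to -0.062 without siALDOA replicate 1, and SLC7A6 is the only gene with values on both sides of 0.

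Per kilobase of the MANE reference transcript, SLC1A5 had the highest level of the 10 genes, at 459 ± 14.0 CPM per kilobase (SD, n = 3) with siControl. SLC7A5 followed at 170 ± 13.3, then ASNS at 135 ± 12.7 and SLC7A1 at 134 ± 8.16 CPM per kilobase. ASNS and SLC7A1 were the only neighbours in this order whose siControl libraries overlapped. SLC38A2 was at 81.7 ± 5.96, SLC38A1 at 66.4 ± 0.476 and SLC7A6 at 28.5 ± 2.68 CPM per kilobase. SLC43A1 at 18.3 ± 1.37, SLC1A4 at 11.2 ± 1.01 and SLC6A9 at 5.69 ± 0.40 CPM per kilobase closed the order. In these levels the heavy chain SLC3A2, at 228 ± 18.6 CPM per kilobase, stood above SLC7A5 and SLC7A6. The transcripts used in HT29 may differ in length from the reference, and this order was not tested.

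**Figure D4:**
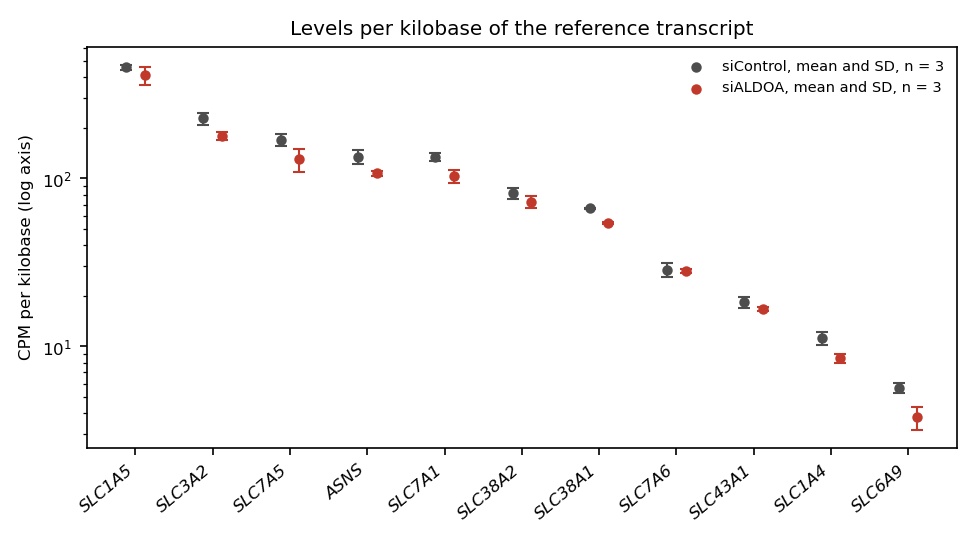
Level per kilobase of the reference transcript (log axis) for the 10 genes and SLC3A2, ordered by the siControl mean, with the SD of 3 libraries. The levels ran from 459 CPM per kilobase for SLC1A5 to 5.69 for SLC6A9 in siControl, and the order of ASNS and SLC7A1 was within their spread.

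Of 42 other amino acid transporters and their heavy chains, 23 were tested, with 2 lower and 3 higher and a median log2 fold change of 0.0075. The lower genes were SLC3A2 and SLC7A11, the cystine and glutamate exchanger that also pairs with SLC3A2. SLC7A11 was at 218, 214 and 230 CPM with siALDOA and at 357, 360 and 379 CPM with siControl, and its log2 fold change was -0.73 (SE 0.056, adjusted p = 1.38e-08). In the whole comparison 5.29% of the tested genes were called lower and 4.36% higher. The genes called higher in this list were SLC6A6, SLC6A20 and SLC38A11. SLC6A6, the taurine transporter, was at 181, 165 and 198 CPM with siALDOA and at 155, 129 and 143 CPM with siControl (log2 fold change 0.35, SE 0.072, adjusted p = 0.00315). SLC6A20, a carrier of proline and other imino acids, changed by 0.48 (SE 0.10, adjusted p = 0.00427). SLC38A11, at 5.41 and 3.14 CPM, changed by 0.79 (SE 0.19, adjusted p = 0.00920) and missed the threshold without siControl replicate 3 (adjusted p = 0.0575). Transporters of this larger list had fold changes of both signs, with 11 negative and 12 positive, and 49.7% of all tested genes had a negative one. The 10 genes above had negative ones only in this fit. Both sets were chosen with earlier results of these data known, so the contrast is a description only.

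Of 22 other genes of the amino acid response, 20 were tested, all 20 with a negative log2 fold change, 8 of them called lower (5.29% of all tested genes were) and none higher, with a median of -0.21. Of all tested genes 49.7% had a negative fold change, and with library totals only, where 33.9% did, 16 of the 20 were negative. CHAC1, an enzyme that degrades glutathione, changed by -0.76 (SE 0.11, adjusted p = 7.51e-05). PSAT1 and MTHFD2, enzymes of serine synthesis and of mitochondrial folate metabolism, changed by -0.44 (adjusted p = 1.54e-04) and -0.32 (adjusted p = 8.85e-04). The stress regulators DDIT4, TRIB3, CEBPB and DDIT3 and the initiation factor gene EIF2S1 lay between -0.38 and -0.20, with adjusted p-values of 0.00283 to 0.0349. Only 2 of the 8 passed with library totals only, 5 passed without siALDOA replicate 3 or without siControl replicate 3, and 4 without siControl replicate 2. With DESeq2 7 passed, and TRIB3 did not (adjusted p = 0.0894). CBS was under the filter, and SESN2 was listed at 0 counts in every library, which is not read as absence for the reason given for LGALS4.

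Beside EIF2S1, the kinase gene EIF2AK4 and ATF4 were chosen for mention after their values were seen, and neither passed the threshold. ATF4 was at 529, 532 and 537 CPM with siALDOA and at 529, 549 and 554 CPM with siControl. Its log2 fold change was -0.031 (95% interval -0.14 to 0.081, adjusted p = 0.784), and EIF2AK4 was at -0.067 (95% interval -0.23 to 0.099, adjusted p = 0.672). Translation of ATF4 and phosphorylation of the initiation factor are not measured by RNA-Seq counts.

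**Figure D5:**
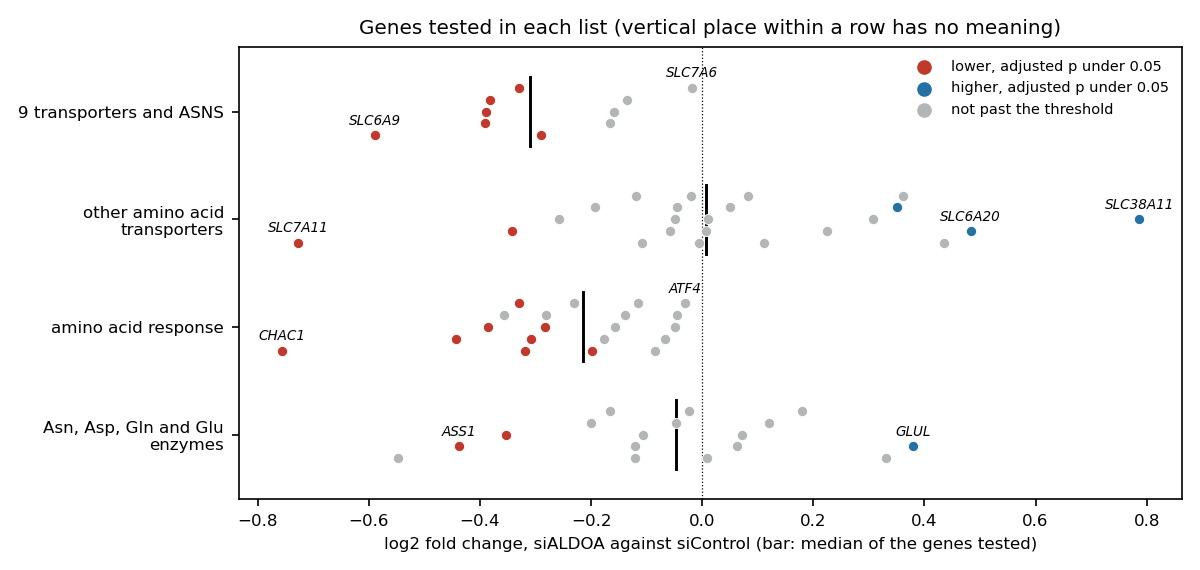
Log2 fold change (horizontal axis) of each tested gene in 4 lists, the 9 transporters and ASNS in the top row, with the median as a black bar and genes past the threshold in red (lower) or blue (higher). The medians were -0.31, 0.0075, -0.21 and -0.046 from top to bottom, and blue points appear among the other transporters and the enzymes.

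Among 17 enzymes and tRNA synthetases of asparagine, aspartate, glutamine and glutamate, all tested, 2 were lower and 1 was higher (5.29% and 4.36% of all tested genes were), with a median log2 fold change of -0.046. ASS1, which joins citrulline with aspartate on the way to arginine, averaged 80.0 ± 5.01 CPM in the siALDOA and 108 ± 3.75 CPM in the siControl libraries (SD, n = 3), and it changed by -0.44 (SE 0.063, adjusted p = 8.82e-05). NARS1, the cytosolic synthetase that charges asparagine to its tRNA, was at 200 ± 1.31 and 256 ± 9.22 CPM (SD, n = 3) and changed by -0.35 (SE 0.055, adjusted p = 1.93e-04). GLUL, glutamine synthetase, was at 296, 267 and 273 CPM with siALDOA and at 222, 204 and 216 CPM with siControl. All 3 siALDOA libraries lay above every control library, with a log2 fold change of 0.38 (SE 0.059, adjusted p = 1.85e-04), opposite in sign to that of ASNS.

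The level of ASNS over the 6 libraries was most like that of CZ1P-ASNS, which may share its reads (Pearson r = 0.9996 of log2 CPM, among 10078 genes of at least 10 CPM). Next came SNORA52 with r = 0.999 and PSAT1, LGALS3 and DNAJC11 with r = 0.997 each. Of these PSAT1 was called lower. SNORA52, LGALS3 and DNAJC11 were not, at log2 fold changes of -0.14, -0.20 and -0.20 (adjusted p = 0.168, 0.0637 and 0.0510). At the top of so many genes ranked on 6 points, r near 1 can come from the ranking alone. These points share libraries, depth and the difference between the groups. Among the other 9 genes r with ASNS ran from -0.29 for SLC7A6 to 0.94 for SLC7A1, with 0.35 for SLC38A2 and 0.93 for SLC6A9. After the group means were taken out, it was highest for SLC43A1 at 0.83, which was not called, and 0.71 for SLC7A1 and 0.67 for SLC7A5. It was -0.079 for SLC38A1, -0.71 for SLC38A2 and -0.81 for SLC7A6. For SLC38A1 this value pools groups that ran in different directions, since siALDOA replicate 1 was the lowest of its group for both genes, whereas siControl replicate 1 was the highest for SLC38A1 and the lowest for ASNS. The values of SLC43A1 and SLC7A6 pool such groups as well. siALDOA replicate 3 was the highest of its group for ASNS and SLC7A6 and the lowest for SLC43A1. In contrast, siControl replicate 1 was the lowest for ASNS and SLC43A1 and the highest for SLC7A6.

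Of the 6 down-regulated genes 4 held the response element core in a promoter window, as did 1 of the 4 others. SLC7A5 and SLC6A9 were down-regulated and had no match in the windows searched, and SLC1A5 had one and did not pass the threshold. In the other lists the word was in 1 of 19 transporters, 2 of 14 amino acid response genes and 2 of 13 enzymes that were tested and had a window.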

How the data were processed

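Per the labels and the study's methods, total RNA of HT29 cells was sequenced as paired-end reads, aligned by the authors to hg38 with tophat2 and counted per gene symbol with gfold. The deposited counts are whole numbers without normalization. The gene annotation used, whether strand was considered and how multi-mapped reads were treated are not given in the sources used here.

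Counts were filtered with filterByExpr, scaled by TMM and tested with the quasi-likelihood F-test of edgeR 4.0.16 in R 4.3.3, with all 6 libraries and no covariate. The threshold was a Benjamini-Hochberg adjusted p of 0.05 over all tested genes. Standard errors were taken as the ratio of each estimate to the root of its F statistic. Alternatives used limma 3.58.1 (voom), DESeq2 1.42.0, the likelihood ratio test, other scalings and filters, the study's unadjusted P of 0.01, a replicate block and fits without 1 library at a time. The methods were run on simulated counts drawn without replicate effects, and the outcome is not used as support here.

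The 10 genes and the lists were chosen with earlier results of these data known. Named beside the 10 genes were ALDOA, SLC3A2, up to 8 called genes of each list by p, and the 5 genes most like ASNS, and called markers were named after their values were seen. An item of the enzyme list is not reported here. Gene positions and transcript lengths came from GENCODE release 44 and promoters from RefSeq. Figures were drawn with matplotlib 3.10.9.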

Additional observations from a re-analysis of the deposited data

How the results depend on the processing

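Of 17 alternatives, scaling by library totals only moved most results. Under it 3 of the 10 genes were called lower, their median log2 fold change was -0.24, and SLC7A5, SLC38A1 and ASNS (adjusted p = 0.0669) missed the threshold. The same scaling called 1 other transporter, 2 amino acid response genes and 279 of all tested genes lower, and 896 of all tested genes higher. It gave SLC7A6 a log2 fold change of 0.058, ATF4 0.041 and EIF2AK4 0.0035. Leaving out ribosomal RNA genes as well, an alternative added after the data were seen, gave 6 of the 10 genes. As each library was left out SLC7A6 ran from -0.071 to 0.060, with positive values without siALDOA replicate 2 (0.0015) and without siControl replicate 1.

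As each library was left out, 6 to 7 of the 10 genes were called lower, 4 to 8 amino acid response genes were lower and 1 to 2 enzymes were higher. Over all tested genes 471 to 790 were lower and 359 to 644 higher in those fits. Of 544 comparisons of single genes with an alternative, 502 kept direction and side of the threshold, 34 lost it, 3 gained it and 5 changed sign.

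Over all tested genes, same-numbered libraries hardly deviated together (correlations of 0.026 to 0.035), so the numbers were not used as pairs. Every library did correlate best with its own number, as a hint from the data and not from the design. Among the 10 genes, SLC7A1, SLC7A5, SLC1A4, SLC1A5 and SLC6A9 had the same order of replicates in both groups. SLC7A6, SLC38A1, SLC38A2, SLC43A1 and ASNS did not. With the replicate block, 7 of the 10 genes were called lower, SLC38A2 being added (adjusted p = 0.0284), and 2 enzymes were higher, while 1175 of all tested genes were lower and 987 higher.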
